A study of Mus musculus with 14 samples.

Results

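Proteasome genes were taken as the rows of the deposited FPKM tables whose gene symbol begins with Psm, a letter from a to g and a digit. This rule found 46 of the 22255 genes. They were followed in 14 RNA libraries of Foxp3-YFP-positive regulatory T cells (Tregs), a class of CD4 T cell that holds other immune cells in check. Spleen (4 libraries), lymph node (LN, 4 libraries) and WT tumor (3 libraries, numbered 2, 3 and 4) are labelled with the strain FoxP3-YFPCre+/+ and as wild type. The KO tumor group (3 libraries) is labelled CD36floxed FoxP3-YFPCre+/- and CD36 KO. All mice were 8 weeks old, and all groups carry the Foxp3-YFP-Cre allele, which expresses Cre in Foxp3-positive cells. Both tumor groups came from Yumm1.7 melanomas, grown from a mouse melanoma cell line. The labels do not say whether the spleen and LN donors carried tumors, or that replicates are separate animals, so the p-values weigh differences against the spread between libraries, and that spread may be technical.

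The proteasome degrades proteins marked with ubiquitin chains. Its 20S core stacks outer rings of alpha subunits on inner rings of beta subunits. A few of the beta subunits cut peptide bonds. A 19S cap, built of an ATPase ring with a base and a lid of non-ATPase subunits, captures, de-ubiquitinates and unfolds the substrate. Lymphocytes and cells exposed to interferon-gamma also build the immunoproteasome, in which Psmb8, Psmb9 and Psmb10 take the places of the constitutive catalytic subunits Psmb5, Psmb6 and Psmb7. This form is known for making peptides that fit MHC class I. The PA28 activator, made from Psme1 and Psme2, opens the core gate, and dedicated chaperones assemble core and cap. Psmb9, Psme2 and Psme3 are not listed by these symbols among the 22255 genes, so they are not analysed here.

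The 46 genes comprised 8 alpha ring genes, 4 non-catalytic beta genes, 3 constitutive catalytic genes, 3 genes of the immuno- and thymoproteasome, 6 of the 19S ATPase ring, 11 non-ATPase genes of the 19S cap, 3 of activators and an inhibitor, and 7 of assembly chaperones. Psmc3ip matched by its name only. It encodes a factor of meiotic recombination and no proteasome subunit. At least 1 FPKM (a level scaled to transcript length and library depth) was reached in every library by 37 of the 46. A gene entered the tests where at least 3 libraries of the fit reached 1 FPKM, which 41 of the 46 did. Psma8, Psmb11, Psmb7, Psmc3ip and Psmg1 did not. Differences were fitted with limma on the log2(FPKM + 1) scale, given with their standard error (SE), and an adjusted p under 0.05 over all tested genes was the threshold.

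The libraries were sequenced to an estimated depth of at least 10.7 M to 21.4 M reads, and proteasome genes took 0.702 to 0.986% of the summed FPKM. Treg markers were present: all 6 listed genes were detected in each group. Foxp3 differed in level, with 3.54 to 12.0 FPKM in WT tumor and 25.7 to 42.4 in KO tumor. It had 15.4 to 32.3 FPKM in LN and 8.67 to 27.8 in spleen. Of the 6 estimates, 4 lay above 0 and 2 below in WT tumor against LN, and also in KO against WT tumor. Cd36 was listed at 0 in all WT tumor libraries and in KO tumor 1 and 3, and at 1.06 FPKM in KO tumor 2, the only tumor library with a value above 0, so it gives no support to the KO label. Genes of other cells differed between groups. The summed FPKM of 10 macrophage or monocyte markers was 271 to 711 in spleen, 4.04 to 36.1 in LN, 1.18 to 107 in WT tumor and 306 to 415 in KO tumor. Of these, Adgre1 and Cd68 were at 0 in WT tumor. In KO tumor Adgre1, Cd68 and Lyz2 had medians of 0, 0.0463 and 0.368 FPKM. Tyrobp, Fcer1g and C1qb had the highest medians there (118, 81.2 and 74.6 FPKM). The sum of 8 B cell markers was 114 to 311 in spleen, 67.8 to 80.4 in LN, 10.6 to 99.5 in WT tumor and 28.5 to 62.9 in KO tumor. The sum of 6 erythroid markers was 2976 to 7079, 79.0 to 1191, 225 to 11899 and 63.3 to 16427. That of 6 CD8 T or NK markers was 8.31 to 66.8, 0.110 to 5.54, 21.5 to 63.3 and 12.4 to 35.5, with Cd8b1 alone at 14.3 to 62.6 in WT tumor. WT tumor libraries also had the largest share of mitochondrial transcripts (10.2 to 10.8% of FPKM, against 7.30 to 8.94% elsewhere) and at most 7687 genes at 1 FPKM, against 7559 to 8307 elsewhere. Depth was 18.4 M to 21.4 M reads in LN and 10.7 M to 17.1 M reads elsewhere.

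Few proteasome genes passed the threshold. In WT tumor against spleen 0 of 41 did (limma; 5 at an unadjusted p under 0.05), with 1.9% of all tested genes called. In WT tumor against LN 2 of 41 were lower, Psma4 and Psmd14, with 3.04% of all genes called. In LN against spleen 1 of 41 was higher, Psma2, with 0.499% of all genes called. In KO against WT tumor 0 of 41 passed (limma; 6 at an unadjusted p under 0.05), with 0.28% of all genes called. In KO tumor against spleen, where tissue and genotype both differ, 1 of 41 was higher, Psma5, with 2.8% of all genes called. In KO tumor against LN 0 of 41 passed (limma; 3 at an unadjusted p under 0.05), with 3.42% of all genes called. Comparisons with a shared group are not independent of each other, since they use the same libraries.

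The median log2 difference of the 41 genes was -0.19 in WT tumor against spleen (all genes -0.07), -0.21 in WT tumor against LN (all genes -0.12), 0.20 in LN against spleen (all genes 0.02) and 0.37 in KO against WT tumor (all genes 0.07). It was 0.26 in KO tumor against spleen (all genes 0.02) and 0.18 in KO tumor against LN (all genes -0.01). By class, the 6 tested chaperones had a median of -1.12 in WT tumor against LN, with all 6 estimates below 0, and 1.10 in KO against WT tumor, with 5 of 6 above 0. The 7 tested alpha genes had 0.02 and 0.62 in these comparisons, the 11 non-ATPase cap genes -0.06 and 0.37, and the 6 ATPase genes -0.17 and 0.11. The 2 tested constitutive catalytic genes had -0.91 and 0.78, and the 4 non-catalytic beta genes -0.55 and 0.28. The 2 tested immunoproteasome catalytic genes had 0.28 and -0.15, and the 3 genes of activators and inhibitor 0.37 and 0.05. Both comparisons use the same WT tumor libraries. Psmg3 gave the highest chaperone estimate in KO against WT tumor (2.90) and met the filter of that fit through its KO tumor libraries. Psma5, an alpha gene, met it in the same way. In LN against spleen the 4 non-catalytic beta genes had a median of 0.80, with all 4 estimates above 0. When libraries were scaled without mitochondrial and globin genes, the medians of the 41 and of all genes were -0.34 and -0.21 in WT tumor against LN, and 0.50 and 0.18 in KO against WT tumor.

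**Figure D1:**
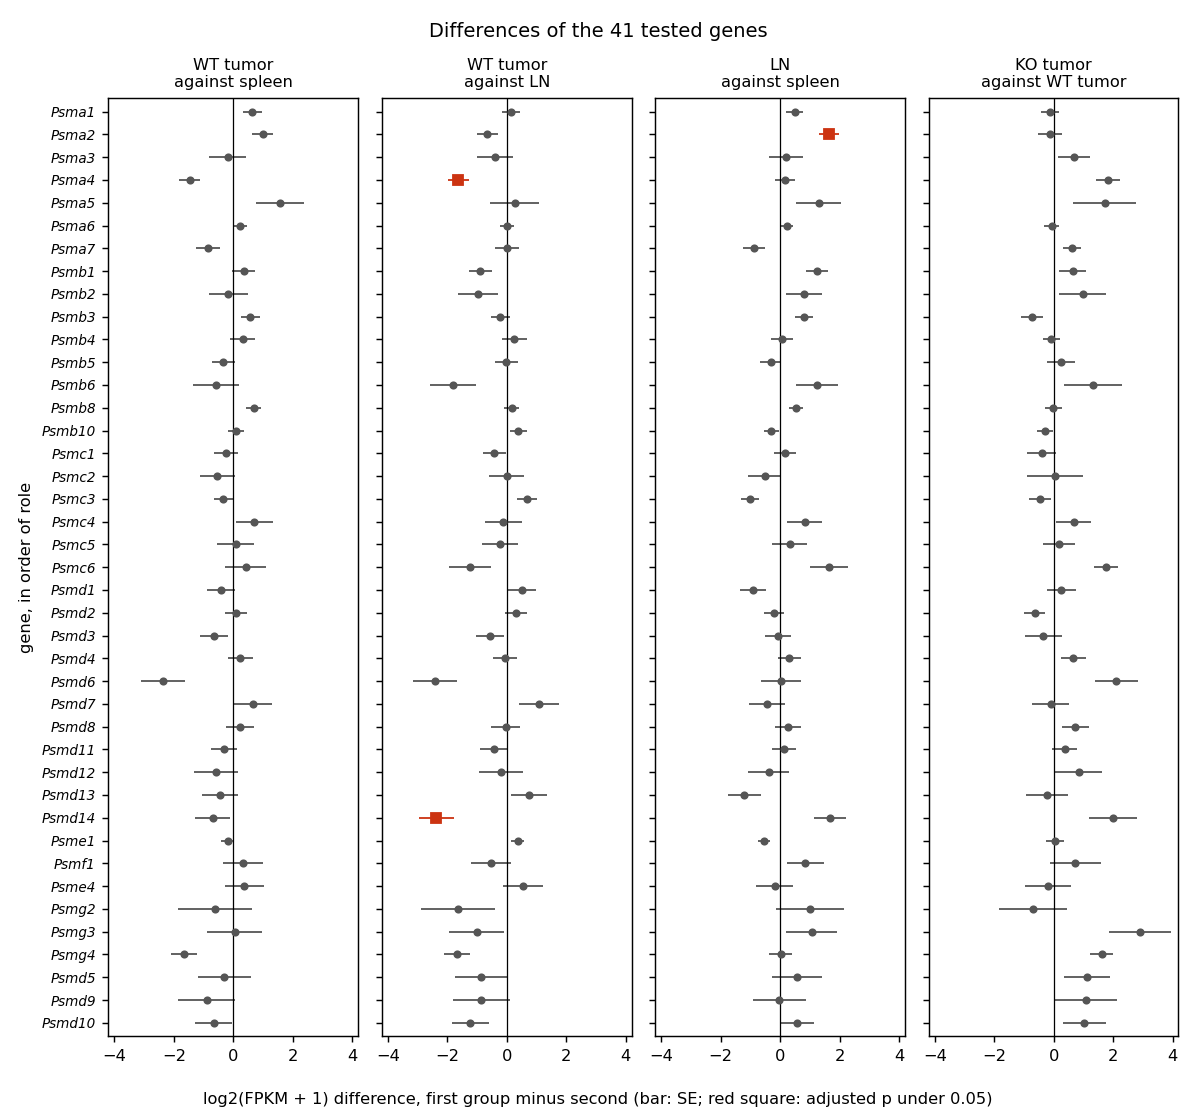
Log2(FPKM + 1) differences (horizontal axis) of the 41 tested proteasome genes (rows, in order of role) in 4 comparisons, first group minus second, with bars of 1 SE; red squares mark adjusted p under 0.05. Psma4 and Psmd14 in WT tumor against LN and Psma2 in LN against spleen are the genes past the threshold in these panels, and no square is drawn for WT tumor against spleen or for KO against WT tumor.

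The start-site regions of Psma2, Psmd14 and Psma5 are shown because the calls are of these genes, and that of the catalytic gene Psmb5, which gave no call, because it holds the ARE core described next. They are given 5′ to 3′ on the gene's strand, from RefSeq on GRCm38.p6, as the stretch of the 250 bases before the annotated start that lies outside exons of protein-coding transcripts. Capitals mark matches to motifs searched on both strands. These were CCAAT, the box bound by NF-Y (ATTGG on the other strand), and TGACNNNGC, the core of the antioxidant response element (ARE) that Nfe2l1, the inducer of proteasome genes, is known to bind. Psma2 is shown at chr13:14613166-14613239, Psmd14 at chr2:61711444-61711693, Psma5 at chr3:108256676-108256925 (all plus strand) and Psmb5 at chr14:54618023-54618245 (minus strand). The Psma4 window lies in an exon of a neighbour and is not shown.
Psma2: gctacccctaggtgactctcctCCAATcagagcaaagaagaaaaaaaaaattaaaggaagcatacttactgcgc
Psmd14: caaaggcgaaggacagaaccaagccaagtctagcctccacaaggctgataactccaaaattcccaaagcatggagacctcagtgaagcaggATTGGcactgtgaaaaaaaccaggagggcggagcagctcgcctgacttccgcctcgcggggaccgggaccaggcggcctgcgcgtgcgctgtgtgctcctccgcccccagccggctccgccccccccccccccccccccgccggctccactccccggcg
Psma5: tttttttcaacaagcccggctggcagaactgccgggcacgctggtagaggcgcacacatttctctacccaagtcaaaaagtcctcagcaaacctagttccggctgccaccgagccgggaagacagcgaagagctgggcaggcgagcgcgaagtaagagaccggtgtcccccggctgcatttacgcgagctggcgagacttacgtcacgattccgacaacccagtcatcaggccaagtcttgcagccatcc
Psmb5: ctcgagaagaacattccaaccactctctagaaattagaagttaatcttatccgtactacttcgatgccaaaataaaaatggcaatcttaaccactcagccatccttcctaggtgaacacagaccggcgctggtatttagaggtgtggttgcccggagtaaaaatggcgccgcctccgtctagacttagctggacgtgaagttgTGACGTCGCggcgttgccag
The match lies 54 to 50 bases before the start in Psma2 (positions -54 to -50), at -159 to -155 in Psmd14 and at -47 to -39 in Psmb5, and Psma5 has none. Motifs were counted over the whole 250 bases, exons included. Of the 38 proteasome genes with such a window in RefSeq, 13 (34.2%) hold CCAAT and 5 (13.2%) the ARE core, against 37.5% and 11.52% of 27025 genes. Psmb10 holds neither motif. A match is a description of letters and not a bound site.

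**Figure D2:**
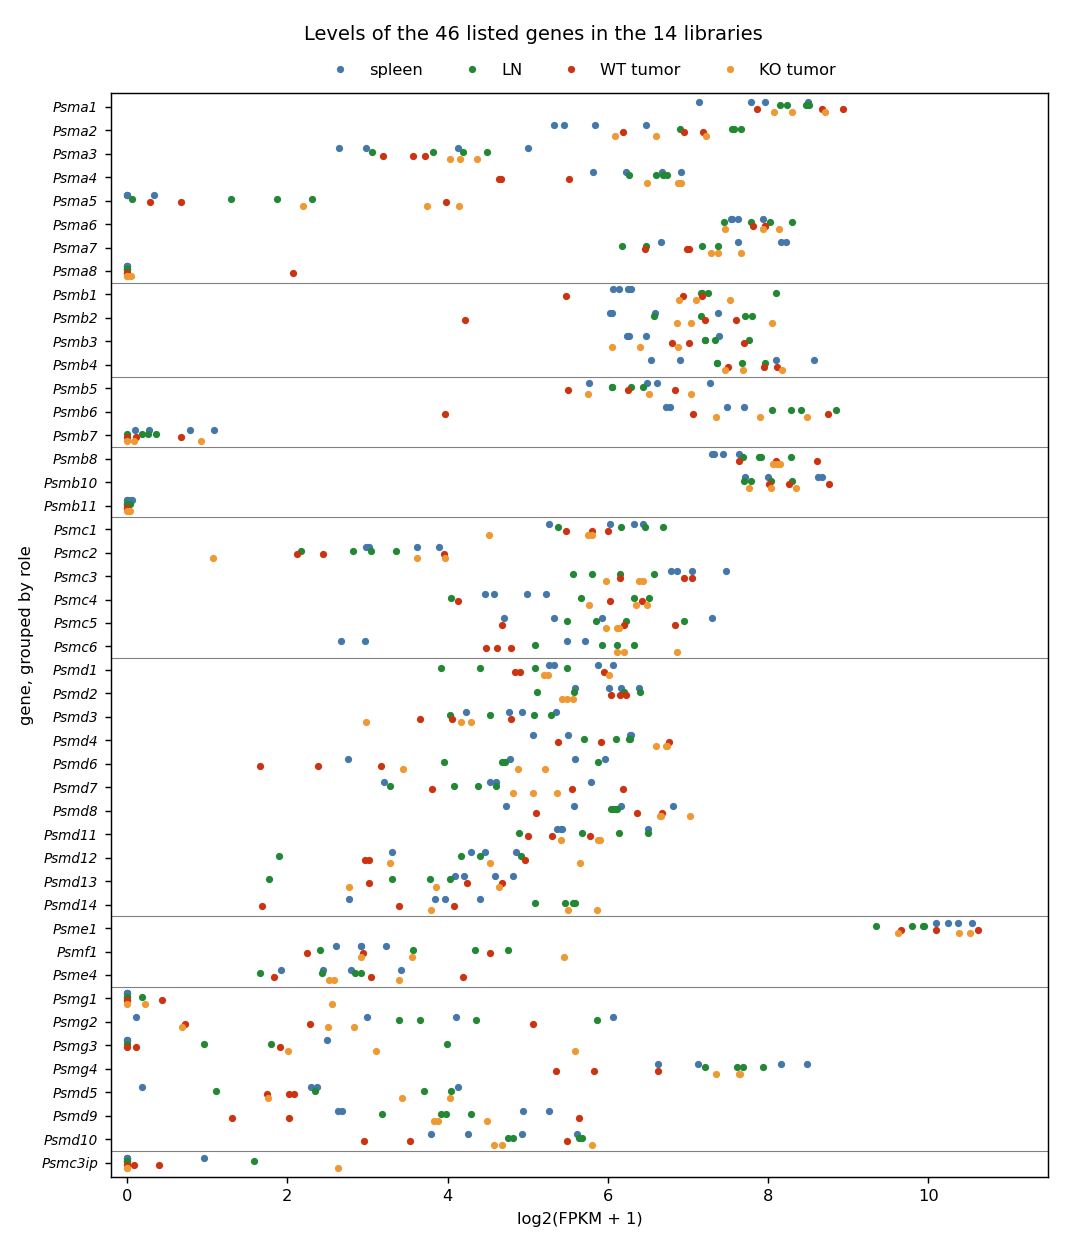
Level of each of the 46 genes (rows, grouped by role) in the 14 libraries on a log2(FPKM + 1) axis, with points coloured by group. Psme1 lies to the right of all others, 20S genes mostly lie right of 19S genes, and points of the chaperone genes spread widest.

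The 46 genes covered a wide range of levels. Psme1 had the highest mean over the 14 libraries, 1121 FPKM, and its lowest library (653 FPKM) stood above the highest of the next gene, Psma1 (490.1 FPKM). Psma1, Psmb10 and Psmb8 followed with means of 314, 290.3 and 241 FPKM, and their ranges overlapped. In all, 13 genes had a mean of 100 FPKM or more, 23 had 10 to 100, 5 had 1 to 10 and 5 were under 1. The 12 core genes with at least 1 FPKM in every library had a median mean of 132.5 FPKM (Psma3, 14.4, to Psma1, 314), and the 17 cap genes 48.4 FPKM (Psmc2, 8.17, to Psmc3, 96.7).

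Levels were uneven within groups, also among subunits that stand in equal numbers in the complex. The median SD within groups on the log2 scale was 0.52 for the 12 core genes, 0.82 for the 17 cap genes and 1.30 for the 6 tested chaperones. Among genes of 10 to 100 FPKM it was 0.82 for 23 proteasome genes and 0.82 for 3352 genes of the table. At 100 to 1000 FPKM it was 0.50 for 12 proteasome genes against 0.37 for 584 genes.

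The alpha ring, which forms the gate of the core, held 3 of the 4 calls. Psma4 (chr9:54950790-54958030, GRCm38) stood at 24.3, 44.9 and 23.9 FPKM in WT tumor 2 to 4. It stood at 103, 96.1, 106 and 76.0 FPKM in LN 1 to 4, at 55.1, 101, 73.6 and 119 FPKM in spleen 1 to 4, and at 117, 119 and 88.8 FPKM in KO tumor 1 to 3. All WT tumor libraries were thus below all others. The mean was 31.1 ± 12.0 FPKM in WT tumor and 95.2 ± 13.4 in LN (SD, n = 3 and 4), and the gene was lower in WT tumor by -1.64 ± 0.36 (SE; adjusted p = 0.0224). Against spleen the estimate was -1.46 ± 0.36 (adjusted p = 0.0562). KO minus WT tumor was 1.82 ± 0.41 (95% interval 0.90 to 2.73; adjusted p = 0.173, and 0.0258 with all 14 libraries in the fit). The summed macrophage markers were 1.18 to 107 FPKM in WT tumor against 306 to 415 in KO tumor. Those of LN, 4.04 to 36.1 FPKM, lay within the WT tumor range. The mitochondrial share was 10.2 to 10.8% in WT tumor, 8.10 to 8.71% in KO tumor and 7.30 to 7.95% in LN. Erythroid markers also differed between WT tumor (225 to 11899 FPKM) and LN (79.0 to 1191). The same held for CD8 T or NK markers (21.5 to 63.3 FPKM in WT tumor and 0.110 to 5.54 in LN). Most of the WT tumor sum was Cd8b1 (14.3 to 62.6 FPKM). Cd8a, Klrb1c, Klrk1, Eomes and Ncr1 had WT tumor medians of 0 to 0.554 FPKM. Of 2 tested genes of this list, 0 passed in WT tumor against LN. The part of the cell markers and of the mitochondrial share in the Psma4 values was not tested. In bulk RNA, fewer cells that express a gene and less RNA per cell cannot be told apart.

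Single libraries moved the Psma4 calls. Against LN the adjusted p was 0.0661, 0.0663 and 0.0701 without LN 1, 2 or 3, and 0.0827 and 0.0705 without WT tumor 2 or 4. Against spleen it was 0.0389 without spleen 1 and 0.0482 without WT tumor 3. The Psma4 start overlaps AY074887 on the other strand, which had 20.03 to 31.0 FPKM in WT tumor, 7.38 to 9.78 in LN, 13.9 to 26.2 in spleen and 11.1 to 17.7 in KO tumor. Strand use in the counting is not given in the sources used here, so reads of the overlap cannot be told apart.

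Psma2 (chr13:14613240-14674236), whose start region is printed above, differed between the lymphoid organs. It stood at 202, 119, 186 and 189 FPKM in LN 1 to 4 and at 88.2, 39.1, 42.9 and 56.3 FPKM in spleen 1 to 4. The groups did not overlap, as was so for 7.87% of all tested genes in this comparison. It was higher in LN by 1.65 ± 0.33 (SE; n = 4 and 4; adjusted p = 0.0461). The tumor groups overlapped with both, with 145, 71.8 and 123 FPKM in the WT tumor libraries, and 96.3, 67.4 and 149 FPKM in KO tumor, with WT tumor minus spleen at 0.999 ± 0.36 (adjusted p = 0.200). The call in LN against spleen held without spleen 1 (adjusted p = 0.0370) and did not without spleen 2, 3 or 4 (0.116, 0.107 and 0.0884) or LN 1, 2, 3 or 4 (0.144, 0.0683, 0.135 and 0.139). Without the filter on low values it was 0.118. AW209491, which shares part of the locus, had at most 6.26 FPKM. LN also had the deeper libraries and less RNA of other cells (erythroid markers summed to 79.0 to 1191 FPKM in LN and 2976 to 7079 in spleen), and the part of either in the Psma2 difference was not tested.

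Psma5 (chr3:108256926-108279974) was the lowest of the alpha genes that every proteasome uses. It was listed at 0 in spleen 1, 3 and 4 and at 0.262 FPKM in spleen 2. The LN libraries had 2.65, 3.95, 1.46 and 0.0440 FPKM, WT tumor 0.602, 14.8 and 0.224, and KO tumor 16.7, 3.57 and 12.4. The KO tumor libraries were all above spleen, and overlapped with LN and WT tumor. The gene was higher in KO tumor than in spleen by 3.28 ± 0.84 (SE; n = 3 and 4; adjusted p = 0.0472), a size that rests on the added 1 FPKM and was 6.06 with 0.1 FPKM added. A level of 3 reads would be 0.113 to 0.227 FPKM across the libraries, which covers counting error only. Without spleen 1, 2, 3 or 4 the adjusted p was 0.0875, 0.0795, 0.0926 and 0.0918, and without KO tumor 1 or 3 it was 0.195 and 0.155. Macrophage markers summed to 306 to 415 FPKM in KO tumor and 271 to 711 in spleen, and B cell markers to 28.5 to 62.9 and 114 to 311, and their part in the Psma5 difference was not tested. KO tumor minus LN was 1.98 ± 0.84 (adjusted p = 0.302). An exact 0 in these tables can be a failed estimate.

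The other alpha genes gave no call. Psma1, the highest, ranged from 139 FPKM in spleen 1 to 490.1 in WT tumor 2, and Psma3, the lowest of those at 1 FPKM in every library, from 5.25 to 31.0 FPKM. Psma6 was the steadiest, at 173 to 315 FPKM. Psma8, the alpha subunit known from testis, was listed at 0 in 12 of 14 libraries and stood at 3.19 FPKM in WT tumor 2 and 0.0352 in KO tumor 1.

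**Figure D3:**
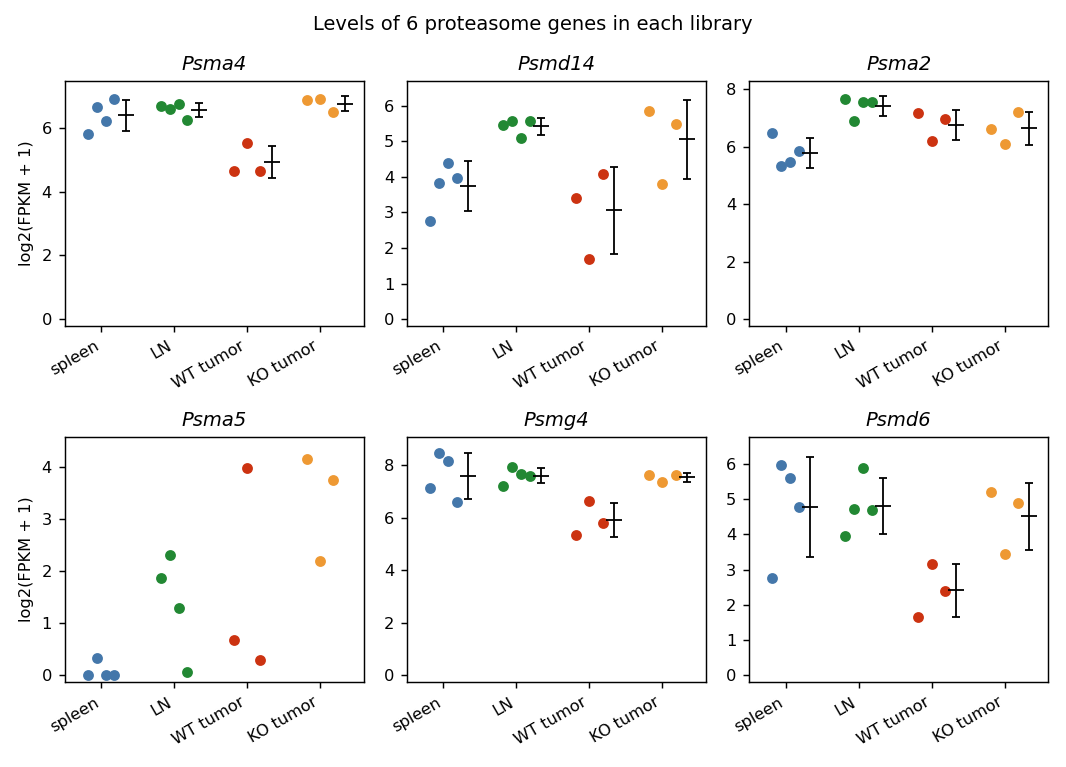
Log2(FPKM + 1) of Psma4, Psmd14, Psma2, Psma5, Psmg4 and Psmd6 in every library (points), with mean ± SD of the group beside the points, left out for Psma5, which is at 0 in 3 libraries. WT tumor points of Psma4, Psmd6 and Psmg4 sit low, LN points of Psma2 and Psmd14 sit above those of spleen, and Psma5 is at or near 0 in spleen.

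The non-catalytic beta genes, the structural part of the inner rings, gave no call in the 6 comparisons. Psmb1 had the smallest p of these in LN against spleen. It stood at 143, 142, 152 and 273 FPKM in LN 1 to 4 and 65.7, 77.1, 75.5 and 69.4 FPKM in spleen 1 to 4. These groups did not overlap, as was so for 7.87% of all tested genes, and the estimate was 1.24 ± 0.36 (95% interval 0.46 to 2.01; adjusted p = 0.194). For KO tumor against spleen it was 0.99 ± 0.37 (adjusted p = 0.216), and for WT tumor against LN -0.89 ± 0.39 (adjusted p = 0.282). Psmb3 gave -0.94 ± 0.33 in KO tumor against LN (adjusted p = 0.177), from 83.8, 117 and 65.2 FPKM in KO tumor and 147 to 216 in LN. It gave 0.58 ± 0.33 in WT tumor against spleen and -0.73 ± 0.37 in KO against WT tumor (adjusted p = 0.463 and 0.653). Psmb4 had the highest mean of the class, 215 FPKM, and ranged from 91.7 FPKM in spleen 1 to 382 in spleen 3. Psmb2 was low in WT tumor 2, at 17.7 FPKM, against 64.1 to 264 in all other libraries.

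The constitutive catalytic genes behaved unlike each other. Psmb5, which encodes the chymotrypsin-like subunit, stood at 96.7, 53.6, 153 and 89.0 FPKM in spleen and 65.6, 65.5, 77.1 and 86.0 in LN. The WT tumor libraries had 75.1, 114 and 44.3 FPKM and the KO tumor libraries 130.2, 90.4 and 53.2, so that all groups overlapped. WT tumor minus spleen was -0.34 ± 0.39 (95% interval -1.18 to 0.50; adjusted p = 0.762). The KO minus WT tumor estimate was 0.24 ± 0.47 (interval -0.82 to 1.30; adjusted p = 0.944).

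Psmb6, which encodes the caspase-like subunit, was the most uneven of the catalytic genes. Its WT tumor values were 14.6, 133 and 431 FPKM, against 460.2, 339.9, 265 and 311 in LN, 179, 105, 206 and 109 in spleen, and 162, 237 and 358 in KO tumor. LN stood above spleen in all libraries, and WT tumor 2 was far below all others. LN minus spleen was 1.23 ± 0.71 (adjusted p = 0.607), and KO tumor minus spleen and minus LN were 0.74 ± 0.73 and -0.49 ± 0.73 (adjusted p = 0.722 and 0.869). WT tumor minus LN was -1.80 ± 0.77 (adjusted p = 0.270), and -2.88 (adjusted p = 0.0311) without WT tumor 4 but -0.49 (adjusted p = 0.645) without WT tumor 2. KO minus WT tumor was 1.32 ± 0.98 (adjusted p = 0.787), and -0.00098 without WT tumor 2.

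Psmb7, the trypsin-like subunit, is part of every standard core, yet its levels were near 0. They were 0.719, 0.210, 1.12 and 0.0751 FPKM in spleen 1 to 4 and 0.202, 0, 0.280 and 0.141 FPKM in LN 1 to 4. WT tumor 2 to 4 had 0.0803, 0 and 0.598 FPKM, and KO tumor 1 to 3 had 0, 0.0636 and 0.904. A level of 3 reads would be 0.0492 to 0.0986 FPKM. Only spleen 3 reached 1 FPKM, so the gene was not tested. As for Psma5, values at or near 0 can be failed estimates.

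Immunoproteasome genes were among the highest of the 46 in all groups. Psmb8, which replaces Psmb5, stood at 198, 159.6, 172 and 156 FPKM in spleen and 312, 240.2, 236 and 205 in LN. The WT tumor libraries had 274, 198 and 392 FPKM and the KO tumor libraries 276, 266 and 284. Every LN and KO tumor library was above every spleen library, and WT tumor 3 was within the spleen range. The estimates against spleen were 0.52 ± 0.23 for LN, 0.70 ± 0.25 for WT tumor and 0.68 ± 0.23 for KO tumor (adjusted p = 0.457, 0.207 and 0.152), which share the spleen libraries and did not pass. KO minus WT tumor was -0.01 ± 0.28, with a 95% interval from -0.64 to 0.62. KO tumor minus LN was 0.16 ± 0.23 (adjusted p = 0.859).

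Psmb10, which replaces Psmb7, stood at 255, 208, 407 and 394 FPKM in spleen and 206, 219.8, 314 and 261 in LN. The WT tumor libraries had 432, 258 and 305 FPKM and the KO tumor libraries 217, 325 and 262, and all groups overlapped. WT tumor minus LN was 0.39 ± 0.28 (adjusted p = 0.535), and KO minus WT tumor -0.29 ± 0.27 (interval -0.91 to 0.32; adjusted p = 0.837). Psmb10 was measured at 206 FPKM or more in libraries where Psmb7, its constitutive counterpart, was at most 1.12 FPKM. Psmb7 values this low can be failed estimates, so these levels do not show which subunit the core holds. Psmb11, the thymus form, was at most 0.0410 FPKM and listed at 0 in 9 libraries.

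Psmb8 and Psmb10 together made up 61.6 to 73.5% of the FPKM of the 5 catalytic genes in spleen, 49.6 to 61.6% in LN, 59.4 to 88.7% in WT tumor and 57.0 to 64.3% in KO tumor. The highest share was that of WT tumor 2, where Psmb6 was lowest. The near-0 level of Psmb7 and the lack of Psmb9 values limit this share, which is a description with no test. The ratio of Psmb8 to Psmb5 was 1.12 to 2.98 in spleen, 2.38 to 4.76 in LN, 1.74 to 8.84 in WT tumor and 2.12 to 5.34 in KO tumor. It was above 1 in all 14 libraries, and neighbouring groups overlapped.

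**Figure D4:**
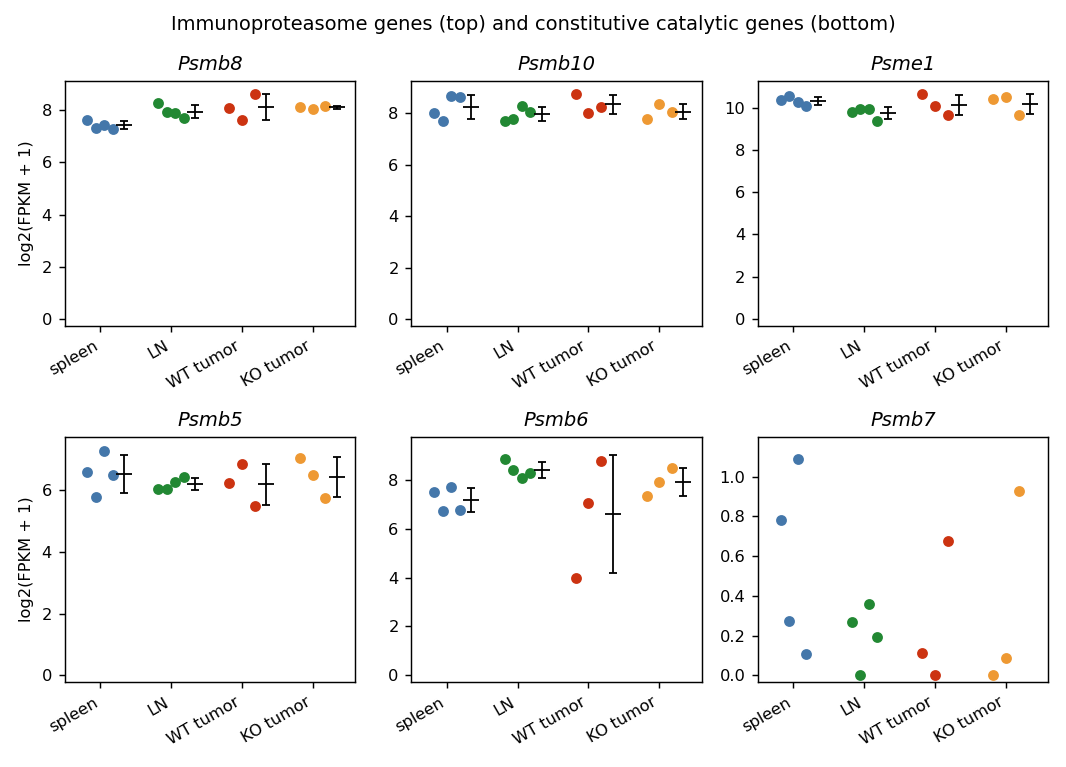
Log2(FPKM + 1) of the immunoproteasome genes Psmb8, Psmb10 and Psme1 (top row) and of the constitutive catalytic genes Psmb5, Psmb6 and Psmb7 (bottom row) in every library (points), with mean ± SD of the group beside the points, left out for Psmb7, which is at 0 in 3 libraries. Psmb8 and Psmb10 lie between 156 and 432 FPKM in all libraries, Psmb6 is spread widely in WT tumor, and the axis of Psmb7 ends near 1.

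The activators differed in level more than between groups. Psme1, the alpha chain of PA28, stood at 1322, 1496, 1211 and 1089 FPKM in spleen, 887, 976, 987 and 653 in LN, 1578, 1093 and 810.3 in WT tumor, and 1336, 1465 and 790.5 in KO tumor. LN lay below spleen in every library, with an estimate of -0.56 ± 0.20 (95% interval -0.98 to -0.13; adjusted p = 0.306). The estimates were -0.19 ± 0.21 for WT tumor against spleen, 0.37 ± 0.21 for WT tumor against LN and 0.42 ± 0.24 for KO tumor against LN (adjusted p = 0.762, 0.437 and 0.502). Psme4, the PA200 activator known from chromatin and the male germ line, ranged from 2.15 to 17.4 FPKM. Psmf1, the inhibitor PI31, ranged from 3.76 to 42.9 FPKM, and KO tumor minus spleen and minus WT tumor were 1.06 ± 0.72 and 0.73 ± 0.86 (adjusted p = 0.568 and 0.884).

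Of the 19S non-ATPase genes, Psmd14 gave the call. It encodes the metalloprotease of the lid that removes ubiquitin chains from the substrate (chr2:61711694-61800376, start region above). Its WT tumor values were 9.55, 2.22 and 15.9 FPKM, against 43.4, 47.1, 32.97 and 46.4 FPKM in LN, with no overlap. Spleen had 5.80, 13.3, 20.2 and 14.6 FPKM, and KO tumor 57.4, 12.9 and 44.3, of which KO tumor 2 lay within the WT tumor range. The mean was 9.24 ± 6.86 FPKM in WT tumor and 42.4 ± 6.52 in LN (SD, n = 3 and 4), and WT tumor was lower by -2.37 ± 0.59 (SE; adjusted p = 0.0460). LN minus spleen was 1.68 ± 0.55 (adjusted p = 0.245), and KO minus WT tumor 1.999 ± 0.81 (interval 0.19 to 3.81; adjusted p = 0.533).

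The Psmd14 call in WT tumor against LN held without WT tumor 4 (adjusted p = 0.0261). It did not without LN 1, 2, 3 or 4 (0.109, 0.119, 0.0831 and 0.110), without WT tumor 2 (0.0827) or without WT tumor 3 (estimate -1.69, adjusted p = 0.155). It was 0.0527 with 0.1 FPKM added, 0.0889 without the filter and 0.0533 with only these groups in the fit. The mitochondrial share, 10.2 to 10.8% in WT tumor and 7.30 to 7.95% in LN, differed between the same libraries. So did the erythroid markers, which summed to 225 to 11899 FPKM in WT tumor and 79.0 to 1191 in LN, with all 4 tested above 0 (median 4.08, 4 at an unadjusted p under 0.05, 1 past the threshold). CD8 T or NK markers summed to 21.5 to 63.3 FPKM in WT tumor, mostly from Cd8b1 (14.3 to 62.6), and 0.110 to 5.54 in LN. The part of any of these in the Psmd14 difference was not tested.

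Psmd6, another lid subunit, was low in WT tumor, at 2.17, 8.00 and 4.23 FPKM. It stood at 5.78, 61.4, 47.3 and 26.5 FPKM in spleen, 14.5, 25.2, 58.0 and 24.7 in LN and 36.1, 9.85 and 28.4 in KO tumor. Only spleen 1 overlapped with the WT tumor range. WT tumor minus LN was -2.40 ± 0.74 and minus spleen -2.37 ± 0.74 (adjusted p = 0.109 and 0.138). Without spleen 1 the latter was -3.04 (adjusted p = 0.0279). The KO minus WT tumor estimate was 2.105 ± 0.72 (interval 0.48 to 3.73; adjusted p = 0.425).

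Psmd4, a ubiquitin receptor of the cap, stood at 96.1, 105 and 106 FPKM in KO tumor and 32.4 to 77.6 in spleen, with an estimate of 0.91 ± 0.38 (adjusted p = 0.281). Psmd3 gave -0.92 ± 0.49 in KO tumor against LN (adjusted p = 0.459). Psmd8 had the highest mean of this class, 76.3 FPKM, and Psmd13 the lowest, 15.5 FPKM. Of the 11 genes, WT tumor estimates lay below 0 in 7 against spleen and in 7 against LN, and KO minus WT tumor estimates lay above 0 in 7.

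The 6 ATPase genes, whose products unfold the substrate, gave no call in the 6 comparisons. Psmc6 had 21.4, 26.8 and 23.6 FPKM in the WT tumor libraries, against 68.3, 72.7 and 116 in KO tumor. These groups did not overlap, as was so for 14.5% of all tested genes in this comparison. The difference was 1.76 ± 0.41 (95% interval 0.84 to 2.68; adjusted p = 0.195). Spleen split into 44.0 and 51.8 FPKM (spleen 1 and 2) and 6.86 and 5.35 FPKM (spleen 3 and 4), and LN had 68.4, 59.8, 33.2 and 79.1 FPKM. KO tumor minus spleen was 2.18 ± 0.65 (adjusted p = 0.0956), and 0.0449 or 0.0317 without spleen 1 or spleen 2.

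Psmc3, the highest of the ATPase genes, stood at 177, 109.6, 132 and 115 FPKM in spleen and 70.0, 94.5, 55.1 and 46.2 in LN. These groups did not overlap, as was so for 7.87% of all tested genes in this comparison. LN minus spleen was -1.02 ± 0.31 (95% interval -1.69 to -0.35; adjusted p = 0.215). WT tumor minus LN was 0.69 ± 0.34 (adjusted p = 0.337). Psmc4 gave 0.71 ± 0.63 in WT tumor against spleen (adjusted p = 0.666), and Psmc1 gave -0.82 ± 0.42 in KO tumor against LN (adjusted p = 0.436). Psmc2, the lowest, ranged from 1.10 to 14.6 FPKM.

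Among the assembly chaperones, Psmg4 had the highest levels. It forms with Psmg3 a pair that helps to build the alpha ring. Its WT tumor values were 39.9, 97.9 and 55.6 FPKM, against 148, 243, 205 and 195 in LN, 139, 357, 286 and 97.6 in spleen, and 199, 162 and 199 in KO tumor. WT tumor was below LN and KO tumor in every library, and its highest library overlapped with spleen 4. WT tumor minus LN was -1.68 ± 0.43 (95% interval -2.60 to -0.75; adjusted p = 0.0528), and minus spleen -1.67 ± 0.43 (adjusted p = 0.0740). KO minus WT tumor was 1.61 ± 0.38 (interval 0.76 to 2.47; adjusted p = 0.209). None of these passed the threshold as fitted. Without WT tumor 3 the adjusted p against LN was 0.0439, and without spleen 4 that against spleen was 0.0270.

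The difference from LN passed under 7 of 15 alternatives, both scalings among them (adjusted p = 0.0361 and 0.0429), and ranged from 0.0239 to 0.182 over all 15. The difference from spleen ranged from 0.0270 to 0.202 and passed under 2 of 15. The summed FPKM of the 7 chaperone genes was 69.4 to 197 in WT tumor, against 223 to 384 in spleen, 209.7 to 324 in LN and 255 to 302 in KO tumor. The groups differed in mitochondrial share and in genes detected as well, and the part of these in the Psmg4 values was not tested.

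The remaining chaperone genes were low and uneven. Psmg3 was listed at 0 in spleen 2, 3 and 4, LN 1 and WT tumor 3, and stood at 4.63 FPKM in spleen 1. Its other values were 0.951, 14.9 and 2.47 FPKM in LN 2 to 4, 2.74 and 0.0786 in WT tumor 2 and 4, and 3.04, 47.1 and 7.59 in KO tumor. The KO tumor libraries were all above WT tumor, at the closest by 3.04 against 2.74 FPKM. Such a lack of overlap held for 14.5% of all tested genes. In the fit of these groups Psmg3 reached 1 FPKM in KO tumor 1 to 3 and in WT tumor 2. It thus met the filter through the group in which it is high. The estimates were 2.90 ± 1.04 for KO against WT tumor, 2.94 ± 1.02 for KO tumor against spleen and 1.06 ± 0.86 for LN against spleen (adjusted p = 0.456, 0.168 and 0.751).

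Psmg1 and Psmg2 encode another chaperone pair of the alpha ring. Psmg1 was listed at 0 in 10 libraries, and the others were LN 2 (0.142 FPKM), WT tumor 2 (0.357), KO tumor 1 (0.171) and KO tumor 2 (4.87). Psmg2 ranged from 0.0768 FPKM in spleen 2 to 66.1 in spleen 4, and KO tumor minus LN was -2.31 ± 1.21 (adjusted p = 0.452). The chaperones of the 19S base are encoded by Psmd5, Psmd9 and Psmd10. They ranged from 0.139 to 16.5, from 1.47 to 48.8 and from 6.75 to 54.8 FPKM, with every group overlapping with every other. Psmc3ip was listed at 0 in 9 libraries and reached 5.19 FPKM in KO tumor 3.

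Genes that work with the proteasome were read from lists chosen with it. Of 21 partners (shuttle factors, deubiquitinases, the maturation factor Pomp and the transcription factors Nfe2l1 and Nfe2l2, among others) 0 passed the threshold in any of the 6 comparisons (limma; 1 or 2 at an unadjusted p under 0.05 in each; 20 tested in KO against WT tumor). Of all tested genes, 8.64 to 15.6% had such an unadjusted p, depending on the comparison. The smallest p-values belonged to Pomp in WT and KO tumor against spleen (1.08 ± 0.46 and 1.12 ± 0.42, adjusted p = 0.302 and 0.217) and to Shfm1, the small cap subunit Sem1, in WT and KO tumor against LN (-1.68 ± 0.52 and -1.28 ± 0.58, adjusted p = 0.109 and 0.351). Vcp, the segregase that extracts ubiquitinated proteins, gave -0.92 ± 0.33 in LN against spleen (adjusted p = 0.313), and the deubiquitinase gene Usp14 2.25 ± 0.85 in KO against WT tumor (adjusted p = 0.486).

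Among the ubiquitin genes, Ubb had 2749, 3055 and 3052 FPKM in the WT tumor libraries, and 2952, 2407 and 2173 FPKM in KO tumor. Spleen had 2148, 1893, 1799.8 and 1612 FPKM, and LN 2147, 1979.6, 1562 and 1395. Every tumor library was above every lymphoid one. Ubb, which encodes ubiquitin as a chain of repeats, was higher in WT tumor than in LN by 0.76 ± 0.15 and than in spleen by 0.67 ± 0.15 (adjusted p = 0.0129 and 0.0361).

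Without WT tumor 3 the adjusted p of Ubb against LN was 0.0586. Against spleen, leaving out spleen 2, 3 or 4 or WT tumor 2, 3 or 4 gave 0.0664, 0.0796, 0.0849, 0.0696, 0.109 and 0.108, and scaling outside mitochondrial and globin genes 0.0524. Rps27a, which encodes ubiquitin fused to a ribosomal protein, was lower in KO tumor than in LN by -0.77 ± 0.13 (adjusted p = 0.00285). Its estimates were 0.44 ± 0.12 in LN against spleen and -0.56 ± 0.17 in KO against WT tumor (adjusted p = 0.170 and 0.343).

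On the interferon route that induces the immunoproteasome, only the receptor chain gene Ifngr1 passed, of 8 genes tested (9 in the KO tumor comparisons with spleen and LN). Its WT tumor values were 714, 907 and 943 FPKM, against 677, 555 and 570.4 in KO tumor, 236, 130.5, 87.3 and 145 in spleen, and 101, 135, 113 and 115 in LN. WT tumor was higher than spleen by 2.58 ± 0.29 (adjusted p = 0.000617) and than LN by 2.87 ± 0.29 (adjusted p = 0.000105). KO tumor was higher by 2.08 ± 0.26 and 2.37 ± 0.26 (adjusted p = 0.000407 and 0.000139), and KO minus WT tumor was -0.50 ± 0.19 (adjusted p = 0.470). In LN against spleen 0 passed (limma; 0 at an unadjusted p under 0.05), with the smallest p for Nlrc5, at -0.61 ± 0.45 (adjusted p = 0.716), and in KO against WT tumor 0 passed (limma; 1 at an unadjusted p under 0.05). Of all tested genes, 10.4% in LN against spleen and 8.64% in KO against WT tumor had such an unadjusted p. The median of the list was 0.04 in WT tumor against spleen and 0.49 in WT tumor against LN (all genes -0.07 and -0.12).

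Of 9 genes of peptide loading (8 in KO against WT tumor), B2m, the light chain of MHC class I, was higher than in spleen in WT tumor (0.87 ± 0.17, adjusted p = 0.0198) and KO tumor (1.21 ± 0.17, adjusted p = 0.000785). The former was 0.0775 without WT tumor 4. Its estimates were 0.58 ± 0.16 in LN against spleen, 0.63 ± 0.17 in KO tumor against LN and 0.34 ± 0.17 in KO against WT tumor (adjusted p = 0.163, 0.0519 and 0.641), of which the second was 0.0334 without LN 4. In WT tumor against LN the smallest p belonged to Calr, at 0.73 ± 0.28 (adjusted p = 0.224). No other gene of this list passed in the 6 comparisons, and 0 passed in KO against WT tumor, WT tumor against LN, KO tumor against LN and LN against spleen (limma; 0, 1, 2 and 3 at an unadjusted p under 0.05). Of all tested genes, 8.64, 15.6, 13.1 and 10.4% had such an unadjusted p in the same order. The median of the list was -0.11 in WT tumor against spleen and 0.22 in KO tumor against spleen (all genes -0.07 and 0.02).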

How the data were processed

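RNA of sorted Tregs was made into libraries with a low-input extraction and the Smart-Seq2 protocol, per the labels' protocols. The authors deposited FPKM values, per the file headers, for 22255 genes in 14 libraries. Per the submitters' processing notes, the build was mm10 (GRCm38) and the tools included Cufflinks 2.2.1 with Cuffdiff, Bowtie2 2.2.9, TopHat2 2.1.1, DESeq2 and Trimmomatic. No source used here gives their roles, and the reads were not processed again. FPKM are shares of a library, so genes compete for the same total, and Cufflinks-type estimates can be 0 where reads are shared between transcripts. Positions and overlaps came from GENCODE M21, which matched 22196 of the 22255 identifiers.

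The plan allowed for counts or FPKM, and the branch for FPKM was used. Robust limma-trend (limma 3.58.1, statmod 1.5.0, R 4.3.3) was run on log2(FPKM + 1) in genes with at least 1 FPKM in at least 3 libraries of the fit, with Benjamini-Hochberg adjustment over all tested genes and a threshold of 0.05. The added 1 FPKM understates differences of low genes. Spleen, LN and WT tumor shared a fit of 11 libraries (9616 genes), KO and WT tumor one of 6 (8210 genes), and KO tumor against spleen or LN one of 14 (10147 genes). The script was tested on simulated data. Depth was estimated as the smallest number of reads that makes low values of genes with a single transcript of at least 800 bases whole (93.0 to 96.0% of values up to 20 reads within 0.1), so a multiple of it is possible. No library pair of the 91 held identical values. Alternatives were another pseudocount, no filter, other scalings, array weights, other libraries in the fit, a replicate block and leaving out each library.

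The members and lists were chosen with earlier results of these data known. The text names members past the threshold, catalytic, activator and chaperone genes, the highest and lowest gene of each class and the smallest p of each class in each comparison, and of the other lists the genes past the threshold or, failing that, the smallest p. A few further members (Psma6, Psma8, Psmb2, Psmc3ip) are named by level, chosen after their values were seen. Python 3.11.15, numpy 2.4.6, pandas 2.3.3, scipy 1.17.1 and matplotlib 3.10.9 did the rest. Some results on the ubiquitin genes and on motifs are not reported here.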

Additional observations from a re-analysis of the deposited data

Results flagged for a closer look

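In groups of 4 libraries, a value was picked out where its gap to the nearest other library was above Dixon's 95% critical value as a share of the group's range. This held in 10 of 89 groups of spleen or LN values. Chance gives about 1 in 20, but in 6 of the 10 the other 3 libraries were at 0, which fixes the outcome, so that rate does not apply to them and the 10 are not read as an excess. Psmd11, a lid subunit gene, stood at 89.6 FPKM in spleen 3 against 40.2, 41.6 and 42.2 in the other spleen libraries. Psmb3 stood at 166 FPKM in spleen 1 against 74.3, 75.6 and 88.3. Psmb1 stood at 273 FPKM in LN 4 against 142, 143 and 152.

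The others were low genes. Psmg3 stood at 4.63 FPKM in spleen 1, with 0 in the other spleen libraries, and at 14.9 FPKM in LN 3 against 0, 0.951 and 2.47. Psmc3ip stood at 0.939 FPKM in spleen 1 and at 1.99 FPKM in LN 2, Psma5 at 0.262 FPKM in spleen 2, Psmg1 at 0.142 FPKM in LN 2 and Psmb11 at 0.0219 FPKM in LN 3, each with 0 in the other 3 libraries of its group.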

How the results depend on the processing

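Counts of proteasome genes past the threshold were small, so a single gene moves them. WT tumor against spleen had 0, and 1 under either scaling (Psma4) and 2 with all 14 libraries in the fit (Psma4 and Psmg4). WT tumor against LN had 2, 1 with 0.1 FPKM added or with no filter, and 3 under either scaling, with array weights or with all 14 libraries (Psmg4 added). LN against spleen had 1, and 0 with no filter. KO tumor against spleen had 1, and 0 with no filter. KO against WT tumor had 0, and 1 with all 14 libraries in the fit (Psma4). Leaving out single libraries gave 0 to 2 in both WT tumor comparisons, 0 to 1 in LN against spleen and KO tumor against spleen, and 0 in the other 2. With the replicate block the counts were 0, 2, 0, 0, 0 and 0 in the order in which the report gives the comparisons. These 2 were Psmd6 and Psmg4 (adjusted p = 0.0331 and 0.0492), and none of the 4 reported calls passed with the block: Psma4 had 0.0629, Psmd14 0.0764, Psma2 0.0741 and Psma5 0.0919, and B2m in WT tumor against spleen 0.0784. Same-numbered libraries did not deviate together (18 pairs, r from -0.059 to 0.033 over 4044 genes). The labels do not say whether equal numbers mark a shared animal or batch. Correlations of deviations within such small groups cannot settle it.

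Of 870 alternative values of 60 member and comparison pairs, 813 kept side and direction, 33 lost the threshold, 20 gained it and 4 changed sign. When single libraries were left out, Psmb5 in WT tumor against spleen ranged from -0.66 (without WT tumor 3) to 0.0104 (without WT tumor 4) and Psme1 from -0.43 (without WT tumor 2) to 0.0468 (without WT tumor 4). In KO against WT tumor, Psmb6 ranged from -0.00098 (without WT tumor 2) to 2.39 (without WT tumor 4) and Psmf1 from -0.00397 (without KO tumor 1) to 1.38 (without WT tumor 4). The cause of these shifts was not tested. The genes called over the whole table ranged from 82 to 221 in WT tumor against spleen (183 as reported), 183 to 349 in WT tumor against LN (292), 13 to 72 in LN against spleen (48), 0 to 60 in KO against WT tumor (23), 158 to 298 in KO tumor against spleen (284) and 203 to 503 in KO tumor against LN (347). With 3 or 4 libraries a group and an SD within groups of 0.82 on the log2 scale for cap genes, small differences were not detectable.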
